A study of Mus musculus with 59 samples.

Results

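Of the 21410 PPARα peaks called in fed mouse liver, 2504 (11.7%) were found only in the fed state and stood apart from BCL6 and PPARδ. These members were chosen by the calls themselves: a fed PPARα peak was a member if no peak centre of the fasted PPARα list, and none of the fed or fasted BCL6 and PPARδ lists, lay within 200 bp of its own centre. Of all fed PPARα peaks, 4314 (20.1%) had no fasted PPARα centre within 200 bp, and 2504 of these 4314 (58.0%) had neither BCL6 nor PPARδ. As a description of the rule, 2504 of the 7715 fed PPARα peaks without BCL6 or PPARδ (32.5%) were absent from the fasted list, against 1810 of the 13695 with one of them (13.2%).

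Chromatin from livers of male wild type (WT) C57BL/6 mice was immunoprecipitated with antibodies to BCL6, PPARα or PPARδ, after ad libitum feeding or an overnight fast. A further BCL6 list came from fed male Bcl6 fl/fl mice on C57BL/6, which carry floxed Bcl6 alleles without Cre. Each list pooled 3 libraries, and the labels used here give no age. Whole liver was used, so the lists themselves do not tell binding in hepatocytes apart from binding in other liver cells. For BCL6, the paper obtained highly similar peaks with hepatocyte Bcl6 knockout livers as background. It took this to mean that the BCL6 peaks reflect hepatocyte binding. The lists hold no tag count or score and the depth is unknown, so an absent peak is one that was not called, and reads below the calling threshold may be present there. The comparison classes were 5211 PPARα-alone peaks called in both states (constant), and 9726 PPARα-alone peaks called only in the fasted state (fasted-only). The p-values below come from two-sided Fisher's exact tests on counts of peaks with Benjamini-Hochberg adjustment. Peaks are not replicates of a condition, so these tests and the 95% Wilson intervals cover counting error only.

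PPARα is a nuclear receptor activated by fatty acids. In liver it is best known for switching on fatty acid oxidation and ketone production during fasting. It binds DNA with its partner RXR at a DR1, a direct repeat of the receptor recognition sequence AGGTCA with 1 spacer base. BCL6 is a zinc finger repressor whose recognition sequence resembles the GAS element bound by STAT factors, and STAT5 carries growth hormone signals in liver.

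The strongest matches to a DR1 among the distal members show what the receptor's own sequence looks like in this set. All 4 match the repeat at each of its 12 fixed bases. In mm10 the window named for Slc35f1 (chr10:52699665-52699864) lay in intron 1 of that gene, 9263 bp downstream of its transcription start site (TSS), and that for Zcchc2 (chr1:105981331-105981530) lay in intron 2 of Gm7160. The windows named for Kctd6 (chr14:8202340-8202539) and Ntm (chr9:30123453-30123652) were intergenic. Each is the 200 bp around a peak centre on the + strand, with the DR1 match in capitals (on the - strand for Kctd6).
Slc35f1: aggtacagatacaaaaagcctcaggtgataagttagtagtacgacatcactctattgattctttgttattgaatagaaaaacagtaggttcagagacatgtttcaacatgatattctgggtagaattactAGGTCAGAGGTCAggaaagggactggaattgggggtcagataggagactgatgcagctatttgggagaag
Zcchc2: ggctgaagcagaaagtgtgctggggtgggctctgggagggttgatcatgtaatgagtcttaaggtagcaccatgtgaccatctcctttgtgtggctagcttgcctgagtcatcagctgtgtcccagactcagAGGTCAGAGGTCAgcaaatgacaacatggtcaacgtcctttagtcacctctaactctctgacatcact
Kctd6: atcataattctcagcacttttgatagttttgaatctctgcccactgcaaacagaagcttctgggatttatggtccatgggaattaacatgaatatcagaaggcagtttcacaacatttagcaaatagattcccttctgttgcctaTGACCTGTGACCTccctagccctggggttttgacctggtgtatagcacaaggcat
Ntm: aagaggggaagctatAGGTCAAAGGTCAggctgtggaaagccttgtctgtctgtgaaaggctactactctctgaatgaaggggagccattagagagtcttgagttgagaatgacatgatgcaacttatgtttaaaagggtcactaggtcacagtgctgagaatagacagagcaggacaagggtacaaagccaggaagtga

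These windows were far from the typical member. Only 5 of 2313 distal members had a DR1 without a mismatch, 50 had 1 mismatch at best and 192 had 2 at best. No member at a promoter had fewer than 2 mismatches. The closest promoter matches include those of Cxcl12, a chemokine gene (chr6:117168295-117168494, peak centre at -141 bp from the TSS, negative values upstream), and Eif3a, a translation initiation factor gene (chr19:60790960-60791159, at -366 bp). The capitals mark the match with 2 mismatches.
Cxcl12: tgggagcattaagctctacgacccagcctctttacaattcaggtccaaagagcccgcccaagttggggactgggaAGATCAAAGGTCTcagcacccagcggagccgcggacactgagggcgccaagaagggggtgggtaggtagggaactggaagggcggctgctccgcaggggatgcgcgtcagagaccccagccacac
Eif3a: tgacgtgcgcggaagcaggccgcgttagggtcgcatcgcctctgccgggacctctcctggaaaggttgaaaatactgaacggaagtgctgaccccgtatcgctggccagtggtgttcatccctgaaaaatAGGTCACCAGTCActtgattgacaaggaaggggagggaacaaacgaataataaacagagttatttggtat

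The GAS element, TTCNNNGAA, had the highest odds ratio of the 14 sequences searched in distal members against the constant class, as described below. The next windows were picked after those values were seen, as examples of members of listed genes with both a GAS match and a BCL6 centre of Bcl6 fl/fl livers within 50 bp, and they are not all such members. They are intergenic and belong by nearest TSS to Slc27a2 (chr2:126534484-126534683), a fatty acid transporter and acyl-CoA synthetase, and Irs2 (chr8:10914655-10914854), the insulin receptor substrate. The BCL6 centres of Bcl6 fl/fl livers lay 8 and 39 bp from these peak centres. Capitals mark the GAS match.
Slc27a2: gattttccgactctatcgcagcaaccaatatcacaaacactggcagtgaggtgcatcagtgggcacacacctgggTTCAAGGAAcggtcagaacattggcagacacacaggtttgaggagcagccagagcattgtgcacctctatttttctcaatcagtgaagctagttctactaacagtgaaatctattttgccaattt
Irs2: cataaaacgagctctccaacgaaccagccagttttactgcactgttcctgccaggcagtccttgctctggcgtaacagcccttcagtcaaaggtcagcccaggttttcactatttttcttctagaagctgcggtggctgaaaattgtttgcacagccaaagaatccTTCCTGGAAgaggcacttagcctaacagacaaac

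The windows nearest to the TSS of a listed metabolic gene differed widely in composition. Etfa, a subunit of the electron carrier that takes electrons from fatty acid oxidation, had a member in intron 1 (chr9:55511795-55511994), centred 349 bp downstream of the TSS, with 68.0% G+C. Acaca, the acetyl-CoA carboxylase of fatty acid synthesis, had one in intron 1 (chr11:84195918-84196117), centred 579 bp downstream, with 42.0% G+C and none of the 14 sequences searched. Capitals mark AGGTCA on the + strand of the Etfa window. Its reverse complement, TGACCT, also occurs there and is left in lower case.
Etfa: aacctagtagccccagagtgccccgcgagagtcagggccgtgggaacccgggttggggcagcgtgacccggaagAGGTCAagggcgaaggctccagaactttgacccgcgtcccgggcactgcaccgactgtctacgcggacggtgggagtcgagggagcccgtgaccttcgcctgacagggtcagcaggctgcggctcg
Acaca: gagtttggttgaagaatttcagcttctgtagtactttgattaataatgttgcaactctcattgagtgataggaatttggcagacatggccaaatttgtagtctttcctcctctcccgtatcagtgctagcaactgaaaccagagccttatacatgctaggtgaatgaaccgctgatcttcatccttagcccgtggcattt

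Members lay mostly away from promoters. Promoters were taken to reach 1000 bp upstream and 100 bp downstream from each RefSeq TSS. By this definition, 191 of 2504 members (7.63%, 6.65% to 8.73%) were at promoters, compared with 1021 of 5211 constant peaks (19.6%) and 2593 of 9726 fasted-only peaks (26.7%). The odds ratio was 0.339 (95% interval 0.288 to 0.399, adjusted p = 2.19e-45) against the constant class and 0.227 (0.195 to 0.265, adjusted p = 1.59e-107) against the fasted-only class. Introns held 49.8% of members and intergenic sequence 39.6%. Both shares were higher than in the constant class, where they were 44.6% (adjusted p = 2.02e-05) and 31.3% (adjusted p = 1.49e-12). Exons outside promoters held 74 members (2.96%), of which 31 were in coding sequence, 26 in 3'UTRs, 11 in 5'UTRs and 6 in non-coding transcripts.

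The distance to the nearest protein-coding TSS showed the same order, with a median of 22441 bp for members, 11689 bp for constant and 9080 bp for fasted-only peaks. Only 235 members (9.38%) were within 1 kb and 444 (17.7%) were over 100 kb away. Peaks that carry BCL6 or PPARδ were also rarely at promoters, whether called in the fed state only (45 of 1810, 2.49%) or in both states (664 of 11885, 5.59%). In their promoter share members thus lay between the other PPARα-alone classes and the classes with BCL6 or PPARδ, an order that was not tested. Members were found on 20 chromosomes at 0.919 per Mb on average, from 0.292 per Mb on chromosome X to 1.53 per Mb on chromosome 11.

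**Figure D1:**
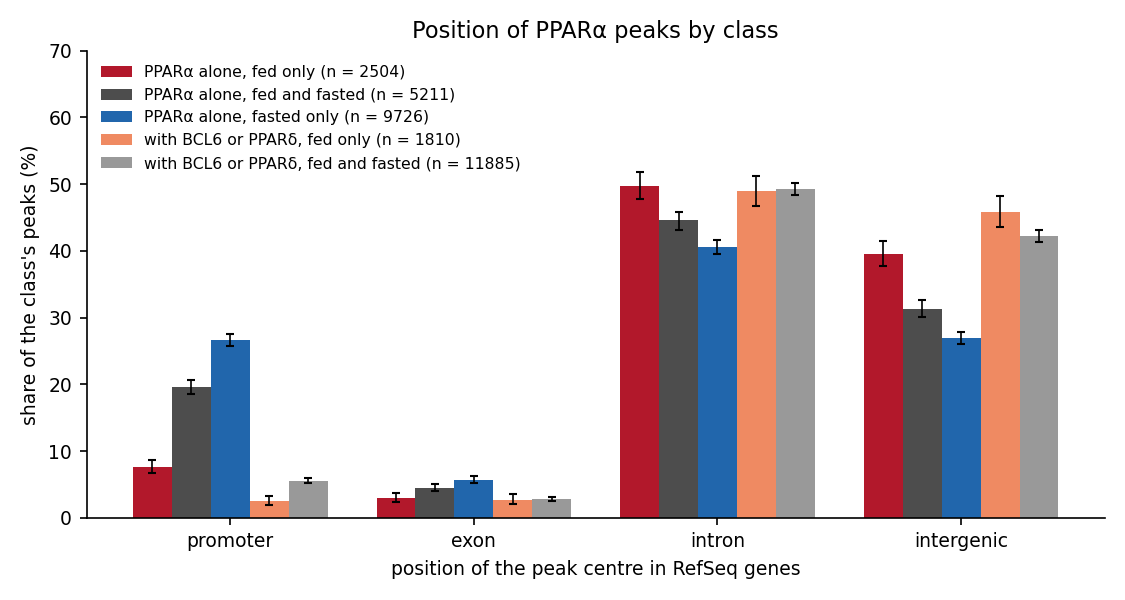
Share of peaks (%, vertical axis) with their centre in a promoter, exon, intron or intergenic sequence, for the 5 classes of PPARα peaks; bars are shares and error bars 95% Wilson intervals. Promoters hold 7.63% of the fed-only PPARα-alone peaks, 19.6% of those called in both states and 26.7% of those called only in fasted liver.

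At the 191 promoter members, the nearest protein-coding TSS was within the promoter span for 169 (88.5%), and for the other 22 the TSS belonged to another transcript. Of these members, 66 (34.6%) had a fasted PPARα centre within 1000 bp, although beyond the 200 bp of the rule. The gene lists and cell type markers used here hold a small part of the 21000 protein-coding genes, so few matches can be expected. Whether promoter members match them more or less often than other genes was not tested. A listed gene was nearest to 1 of the 191 (0.524%): Apob, the structural protein of very low density lipoprotein, with its peak centred at -48 bp (chr12:7977521-7977737). That member had 54.5% G+C, a C/EBP sequence, a fasted PPARα centre 991 bp away and a BCL6 centre of Bcl6 fl/fl livers 111 bp away. Promoter members were less GC-rich than other PPARα-alone promoter peaks. At least 55% G+C was found in 99 of 191 (51.8%), against 75.8% of constant (adjusted p = 1.40e-10) and 85.0% of fasted-only promoter peaks (adjusted p = 1.76e-24).

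Distal members, the 2313 outside promoters, were also poorer in G+C. Their median was 45.5% G+C (quartiles 40.5% and 50.5%), against 50.0% for the 4190 constant and 49.5% for the 7133 fasted-only distal peaks. A window of at least 55% G+C occurred in 234 of 2313 distal members (10.1%), 25.9% of constant and 24.7% of fasted-only peaks. The odds ratio was 0.323 (0.277 to 0.375, adjusted p = 1.55e-55) against the constant class and 0.344 (0.297 to 0.397, adjusted p = 1.42e-55) against the fasted-only class. Distal peaks with BCL6 or PPARδ had medians of 42.5% (fed only) and 46.0% (both states). Windows with at least 50% repeat-masked bases were uncommon. Over all positions they were somewhat more frequent in members (88 of 2504, 3.51%) than in constant peaks (134 of 5211, 2.57%, odds ratio 1.38, 1.05 to 1.81, adjusted p = 0.0332). Among distal peaks they made up 87 of 2313 members (3.76%) and 127 of 4190 constant peaks (3.03%), a difference that did not pass the test (odds ratio 1.25, 0.947 to 1.65, adjusted p = 0.153) but had an odds ratio of 1.40 (unadjusted exact p = 0.00497) in windows of 100 bp.

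**Figure D2:**
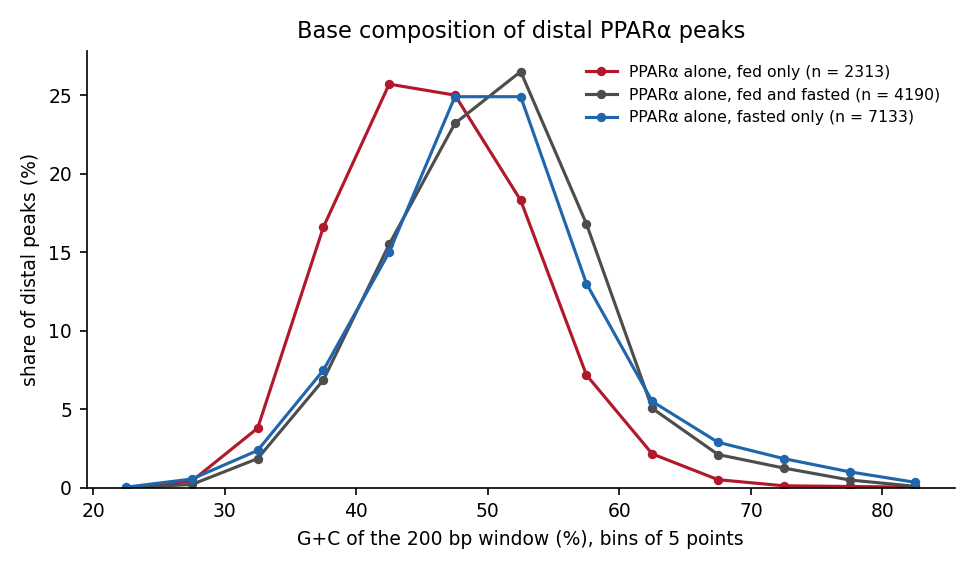
G+C of the 200 bp window at the peak centre (%, horizontal axis, bins of 5 points) against the share of distal peaks in each bin (%, vertical axis) for the 3 PPARα-alone classes. The curve of the fed-only peaks (median 45.5%) lies to the left of the other two, whose medians are 50.0% and 49.5%.

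Outside promoters, the receptor's own sequence was less frequent in members than in the other PPARα-alone peaks. Up to 2 mismatches were allowed over the 12 fixed bases of the DR1, and both strands were searched. Among distal peaks, 247 of 2313 members (10.7%, 9.48% to 12.0%) had such a match, compared with 617 of 4190 constant peaks (14.7%) and 1201 of 7133 fasted-only peaks (16.8%). The odds ratio was 0.692 (0.592 to 0.810, adjusted p = 1.75e-05) against the constant class and 0.591 (0.510 to 0.683, adjusted p = 2.55e-12) against the fasted-only class. Of all 200 bp windows of the genome, 2.34% held a match, so the share in members was above that background. Distal peaks with BCL6 or PPARδ held a DR1 match in 9.12% (fed only) and 15.5% (both states). A low share was thus not particular to members. The single sequence AGGTCA, which many DR1 matches contain, was found in 28.2% of distal members, 33.3% of constant (adjusted p = 7.90e-05) and 33.4% of fasted-only peaks (adjusted p = 1.32e-05), and in 11% of genome windows. At promoters the shares ran the other way without passing the test: a DR1 match was in 12 of 191 members (6.28%), 4.70% of constant (odds ratio 1.36, 0.708 to 2.61, adjusted p = 0.496) and 4.13% of fasted-only peaks (odds ratio 1.56, 0.842 to 2.88, adjusted p = 0.296), and AGGTCA was in 17.3%, 16.1% and 13.2%. Where a DR1 was present in a distal peak it lay near the peak centre in each class: 189 of 273 matches in distal members (69.2%) were within 50 bp of it, against 68.5% in constant and 73.3% in fasted-only peaks.

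The GAS element showed the opposite order in distal peaks. TTCNNNGAA, which reads the same on both strands, occurred in 231 of 2313 distal members (9.99%, 8.83% to 11.3%), but in 230 of 4190 constant peaks (5.49%) and 360 of 7133 fasted-only peaks (5.05%). The odds ratio was 1.91 (1.58 to 2.31, adjusted p = 3.62e-10) against the constant class and 2.09 (1.76 to 2.48, adjusted p = 1.64e-14) against the fasted-only class. Genome windows held it in 7.45%, a share below that of members and above that of the other PPARα-alone classes. Peaks with BCL6 or PPARδ held it in 17.1% (fed only) and 9.15% (both states). Base composition moves with this result, as members are poorer in G+C. Within distal windows of 40% to 50% G+C, 110 of 1173 members and 97 of 1621 constant peaks held a GAS match, with an odds ratio of 1.63 (unadjusted exact p = 9.51e-04). At promoters, GAS was in 11 of 191 members (5.76%), 7.44% of constant (odds ratio 0.760, 0.396 to 1.46, adjusted p = 0.647) and 4.70% of fasted-only peaks (odds ratio 1.24, 0.656 to 2.34, adjusted p = 0.613), and neither difference passed the test.

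HNF6, a homeodomain factor of hepatocytes and bile duct cells, has the recognition sequence TATTGAT. It was found in 188 distal members (8.13%), compared with 5.47% of constant peaks (odds ratio 1.53, 1.25 to 1.87, adjusted p = 1.34e-04) and 4.04% of fasted-only peaks (odds ratio 2.10, 1.74 to 2.54, adjusted p = 2.28e-12). Against the constant class this difference was not seen in windows of 40% to 50% G+C, with 86 of 1173 members and 118 of 1621 constant peaks (odds ratio 1.01, unadjusted exact p = 1). Against the fasted-only class it remained in these windows, with 138 of 2850 fasted-only peaks (odds ratio 1.55, unadjusted exact p = 0.00240). Distal peaks with BCL6 or PPARδ held TATTGAT more often than members, in 14.8% (fed only) and 9.23% (both states). At promoters, 10 of 191 members held TATTGAT, against 7 of 1021 constant (adjusted p = 1.88e-04) and 15 of 2593 fasted-only peaks (adjusted p = 1.32e-05). The members' promoter windows were also poorer in G+C, and its part in that difference was not tested.

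In distal peaks, the FOXA and C/EBP sequences were more frequent in members than in the fasted-only class, without a detectable difference from the constant class. FOXA, a pioneer factor of liver enhancers, has the sequence TGTTTAC, which was found in 8.08% of distal members, 7.33% of constant (odds ratio 1.11, 0.921 to 1.34, adjusted p = 0.423) and 5.33% of fasted-only peaks (adjusted p = 1.32e-05). At promoters TGTTTAC was in 1 of 191 members (0.524%) and 37 of 1021 constant peaks (3.62%), a lower share in members (odds ratio 0.140, 0.0191 to 1.03, adjusted p = 0.0459). This rests on 1 member, and the interval of the odds ratio includes 1. The difference from fasted-only promoter peaks (2.20%) did not pass the test (odds ratio 0.234, 0.0322 to 1.70, adjusted p = 0.291). The C/EBP sequence TTNNGCAA was found in 20.4% of distal members, 18.8% (odds ratio 1.1, 0.972 to 1.25, adjusted p = 0.230) and 16.0% (adjusted p = 1.32e-05). AP-1, TGANTCA, was in 8.43% of members and did not pass either test (odds ratios 1.08, 0.895 to 1.30, and 1.13, 0.949 to 1.34). The GC box GGGCGG, bound by SP and KLF factors, was in 4.50% of members, 8.93% of constant (odds ratio 0.480, adjusted p = 1.67e-10) and 10.3% of fasted-only peaks (odds ratio 0.411, adjusted p = 8.25e-18). Of all genome windows, 3% held TGTTTAC, 3.20% TATTGAT, 9.38% TTNNGCAA, 5.94% TGANTCA and 1.92% GGGCGG.

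Of the 14 sequences tested in distal peaks, 2 were more frequent in members than in the constant class (GAS and HNF6) and 5 less frequent (DR1, AGGTCA, the GC box, the ETS sequence CCGGAAG and CTCF). Against the fasted-only class, 4 were more frequent and 6 less frequent. Members were poorer in G+C than both classes, at promoters and elsewhere. Windows of like G+C were compared only for the DR1, GAS and HNF6 in distal peaks. For the other sequences, among them the GC box, ETS, CTCF and FOXA, the part of base composition was not tested. Among distal peaks, the E-box CACGTG, the CRE TGACGTCA and the NF-Y sequence CCAATNAG passed the test in neither comparison. At promoters, 2 of the 14 were more frequent in members than in the constant class (HNF6 and NF-Y) and 3 less frequent (FOXA, ETS and the GC box). Against fasted-only promoter peaks, 2 were more frequent (HNF6 and C/EBP) and 2 less frequent (ETS and the GC box). No sequence of the 14 was found in 679 distal members (29.4%), and 17 (0.735%) held both GAS and HNF6 matches. A match is only a run of letters in the window, and occupancy was measured here only for BCL6, PPARα and PPARδ.

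**Figure D3:**
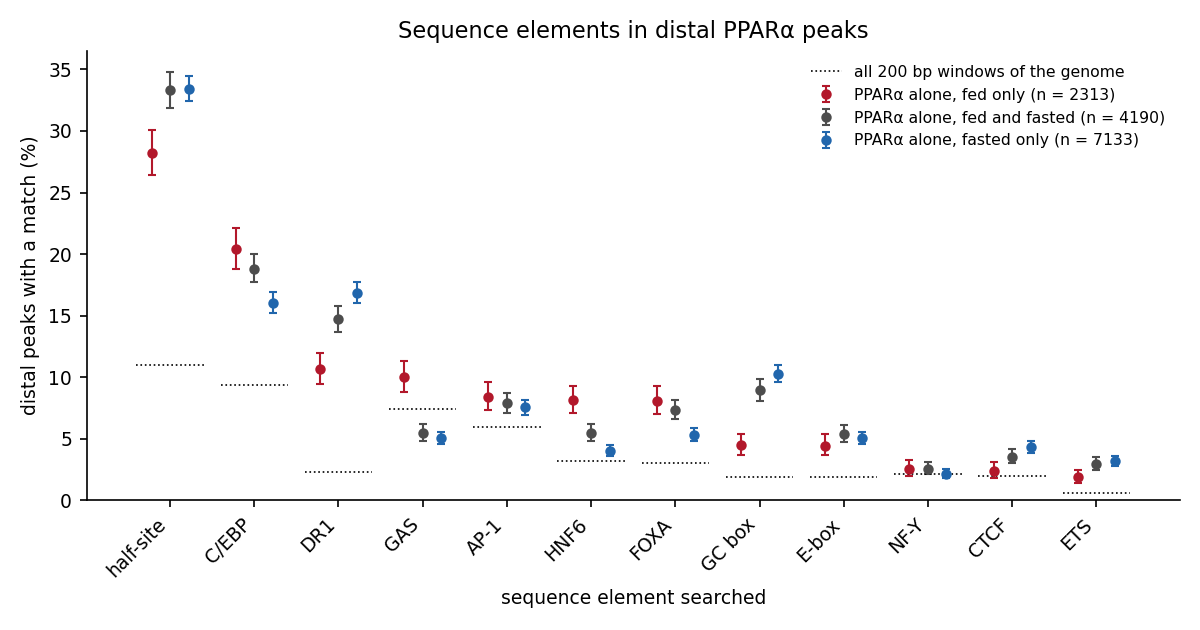
Share of distal peaks with a match to each sequence element (%, vertical axis) in the 3 PPARα-alone classes; points are shares, bars 95% Wilson intervals and dotted lines the share of all 200 bp genome windows. GAS and HNF6 are highest in the fed-only peaks (9.99% and 8.13%), and the DR1, AGGTCA and the GC box are lowest there.

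The BCL6 list of Bcl6 fl/fl livers gave a check of the word "alone" that the rule had not used. Of the 2504 members, 384 (15.3%, 14.0% to 16.8%) had a BCL6 centre of these fed livers within 200 bp, although none had one in the fed or fasted C57BL/6 lists. For 281 of the 384 (73.2%) the centres were within 50 bp, and the median distance was 28 bp. At these sites the data therefore go against the word, whereas the other members had no BCL6 call in any list used here. Of all fed PPARα peaks, 11856 (55.4%) had such a centre, a share that includes the peaks with BCL6 in C57BL/6 livers, which the rule removed. Only the PPARα-alone classes, all cleared of C57BL/6 BCL6 peaks, can be compared with members.

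In that comparison members lay between the other classes. A BCL6 centre of Bcl6 fl/fl livers was present at 1505 of 5211 constant peaks (28.9%) and 784 of 9726 fasted-only peaks (8.06%). The odds ratio of members was 0.446 (0.394 to 0.505, adjusted p = 3.93e-40) against the constant class and 2.07 (1.81 to 2.35, adjusted p = 1.12e-25) against the fasted-only class. The share in members was similar at promoters (24 of 191, 12.6%), in exons (11 of 74, 14.9%), in introns (191 of 1247, 15.3%) and between genes (158 of 992, 15.9%). In constant peaks it was 22.4% at promoters and 30.3% in introns.

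**Figure D4:**
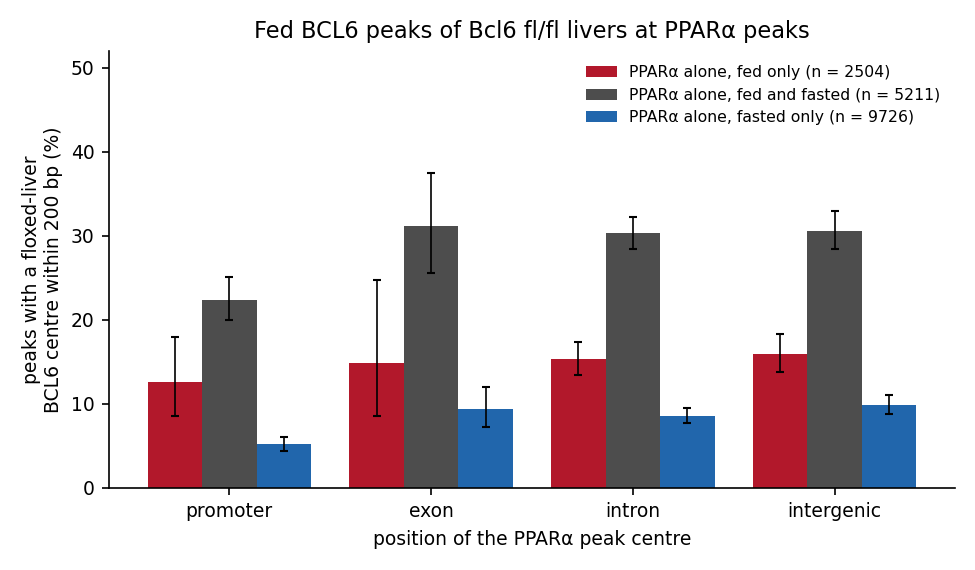
Share of PPARα-alone peaks with a BCL6 centre of fed Bcl6 fl/fl livers within 200 bp (%, vertical axis), by position of the peak; bars are shares with 95% Wilson intervals. At each position the fed-only peaks (12.6% to 15.9%) lie between the peaks called in both states and those called only in fasted liver.

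Distal members with a GAS match had such a BCL6 centre in 44 of 231 cases (19.0%, 14.5% to 24.6%) and those without in 316 of 2082 (15.2%), a difference that did not pass Fisher's exact test (odds ratio 1.31, 0.927 to 1.87, adjusted p = 0.215). The same held for HNF6, DR1, FOXA and C/EBP, with odds ratios from 0.697 to 1.32 and adjusted p from 0.215 to 0.246. With all peaks near a BCL6 centre of Bcl6 fl/fl livers left out, 187 of 1953 distal members and 166 of 2914 constant peaks held a GAS match, an odds ratio of 1.75 (unadjusted exact p = 4.62e-07).

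The distances from members to other peaks were measured in members only, with no comparison class. The nearest fasted PPARα centre lay at a median of 6532 bp (quartiles 1707 and 27255 bp), and 410 members (16.4%) had one within 1 kb. The nearest other fed PPARα centre was at a median of 9299 bp, and the nearest fed BCL6 centre at 17854 bp. Fasted PPARδ, the shortest list, was farthest, with a median of 217634 bp. Another member was within 10 kb of 249 members (9.94%), and the median distance to the nearest other member was 160256 bp. Whether members lie closer together or farther apart than an even spread was not tested. The rule used the fasted PPARα, BCL6 and PPARδ lists, so these distances are a description.

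**Figure D5:**
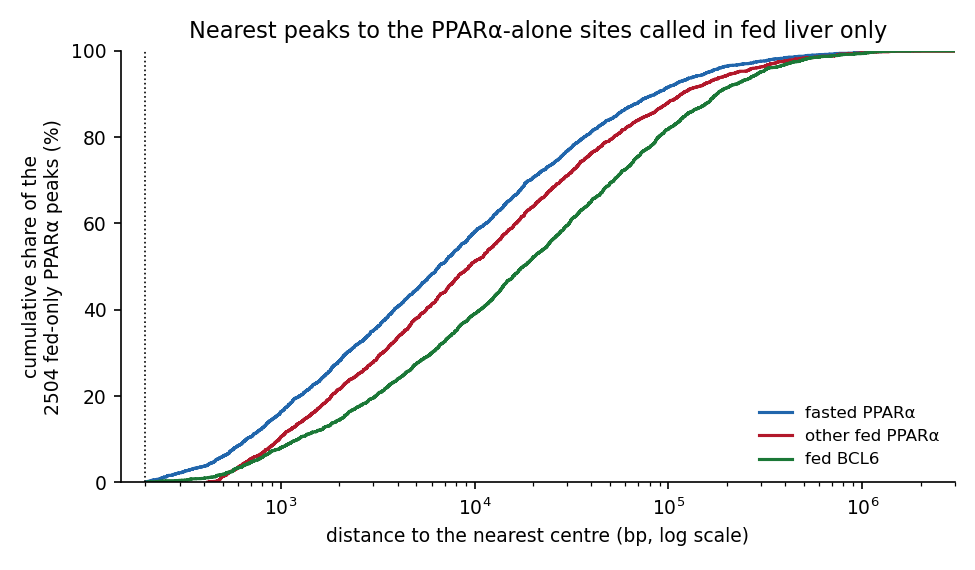
Cumulative share (%, vertical axis) of the 2504 fed-only PPARα-alone peaks with a fasted PPARα, another fed PPARα or a fed BCL6 centre within the distance on the horizontal axis (bp, log scale); the dotted line is the 200 bp of the rule. The medians are 6532, 9299 and 17854 bp.

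Around the limit of 200 bp, counts were low. Of all fed PPARα peaks, 18534 had a centre of at least 1 of the 5 lists of the rule (fasted PPARα, and fed and fasted BCL6 and PPARδ) within 100 bp, 300 had the nearest at 101 to 150 bp and 72 at 151 to 200 bp. Of the members, 43 had the nearest such centre at 201 to 250 bp, 24 at 251 to 300 bp and 2017 at over 1000 bp. The closest members lay at 201 bp and the farthest excluded peaks at 195 bp. Among named genes, members near Elovl5 (207 bp), Ppara (242 bp) and Ppp1r3b (261 bp) were close to this limit through a fasted PPARα centre, and the member near Cyp27a1 was 201 bp from a fed BCL6 centre.

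By nearest protein-coding TSS within 1 Mb, 2496 members were assigned to 2034 of 21000 genes (9.69%). Most of these genes (1673) had a single member, 282 had 2 and 79 had 3 or more. A fed PPARα peak that was also called in the fasted state was assigned to 1484 of the 2034 genes (73.0%), against 31.1% of all genes. A fasted-only PPARα-alone peak was assigned to 1184 of them (58.2%), against 30.4% of all genes. These shares were not adjusted for the span of each gene, which sets how many peaks of any kind it can receive. At 326 genes (16.0%) no PPARα peak other than members was assigned from the 5 classes plotted by position, which leave out fasted-only peaks with BCL6 or PPARδ.

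Bcor, a partner of BCL6 in repression, had the most members of all genes, 7, on chromosome X. Its members lay from 344754 bp downstream to -126914 bp from the TSS, with 1 in intron 1 of Bcor (chrX:12103449-12103665). BCL6 centres of Bcl6 fl/fl livers were within 200 bp of 4 of them, at 20, 35, 66 and 110 bp. Id2, an inhibitor of basic helix-loop-helix factors, had 6 members, at -264 (promoter), -1292, -66096, -113455, -128291 and -169725 bp. The neuropilin gene Nrp1 and the sialyltransferase gene St3gal4 had 5 each. Abca1, Arhgap26, Daam1, Foxa1, Kcnj2 and Nedd4l had 4 each. At Foxa1, which encodes a pioneer factor of liver enhancers, 2 of the 4 members lay 6657 and 8187 bp downstream of the TSS and 2 within introns of Mipol1. The Kcnj2 members lay farthest of this group from fasted PPARα, between 156058 and 356736 bp from any such centre. They were not as far from BCL6. The member at chr11:111269826-111270042 was 4 bp from a BCL6 centre of Bcl6 fl/fl livers, and the others had none within 200 bp. The member at chr11:111242768-111242984 was 2231 bp from a fed C57BL/6 BCL6 centre.

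Among the genes of fatty acid oxidation and ketogenesis, PPARα's classical targets, the share with a member was near that of all genes. Of 29 listed genes, 2 (6.90%) had a member, against 9.69% of all genes. A constant PPARα-alone peak was assigned to 9 of the 29 (31.0%), a fasted-only one to 17 (58.6%), and a kept peak with BCL6 or PPARδ to 28 (96.6%). The 2 genes were Ehhadh, the peroxisomal bifunctional enzyme, with members at -19310 and -46306 bp, and Etfa, with members 349 and 37856 bp downstream of the TSS. Both Etfa members had a BCL6 centre of Bcl6 fl/fl livers within 200 bp, at 29 and 51 bp, and neither Ehhadh member had one. Of the 14 genes of thioesterases and omega-oxidation, only Cyp4a14, a fatty acid omega-hydroxylase, had a member, 12601 bp downstream. Of the 14 genes of fatty acid uptake and activation, only Slc27a2 had one, at -18441 bp. In both lists the share with a member was 7.14%, near the 9.69% of all genes.

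Among 12 regulators and secreted products that PPARα induces, 4 had a member (33.3%, 9.69% of all genes). The list was above all genes for constant (3 of 12 genes), fasted-only (41.7%) and kept peaks with BCL6 or PPARδ (91.7%) too. The shares of all genes in these classes were 17.2%, 30.4% and 24.1%. Fed-only peaks with BCL6 or PPARδ went the other way, with 0 of 12 genes against 6.93% of all genes. Fgf21, the fasting hormone of liver, had one 11628 bp downstream of its TSS (chr7:45603754-45603970), with the nearest fasted PPARα centre 5813 bp away. Creb3l3, a transcription factor of triglyceride metabolism, had one in intron 5 (chr10:81090789-81091005), 83 bp from a BCL6 centre of Bcl6 fl/fl livers. The lipid droplet genes Plin2 and Cidec had 1 each, at -19315 and 7124 bp, with fasted PPARα centres 999 and 585 bp away. All 4 genes also had a fed PPARα peak with BCL6 or PPARδ that was kept in the fasted state, 2 at Fgf21, 1 at Creb3l3, 3 at Plin2 and 2 at Cidec.

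Genes of the fed state and of glucose handling had a member more often than all genes (9.69%), which is given as a count with no test. Their genes also exceeded all genes in the other classes: a constant PPARα-alone peak was assigned to 47.4% of lipogenesis genes and 53.8% of glucose genes, against 17.2% of all genes. Of 19 lipogenesis genes, 6 (31.6%) had 1 member each: Acaca, Scd1 (stearoyl-CoA desaturase), Elovl5 (a fatty acid elongase), Mlxipl (the glucose-sensing factor ChREBP), Gpam and Lpin2 (glycerolipid synthesis). The Mlxipl member, in intron 1 and 2295 bp downstream of the TSS (chr5:135109078-135109294), was the only one of these with a DR1 match, which had 1 mismatch. Of 13 genes of glucose use and gluconeogenesis, 7 (53.8%) had a member. They were the gluconeogenic genes Pck1 (7011 bp), Pcx (-16853 bp) and Fbp1 (9948 bp), the glycogen phosphorylase gene Pygl (4120 bp), the coactivator gene Ppargc1a (69961 bp) and the glycogen-targeting subunit genes Ppp1r3b and Ppp1r3c. The same number of these genes, 7 of 13, had a constant PPARα-alone peak, and 12 of 13 had a kept peak with BCL6 or PPARδ.

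In insulin signalling, a constant PPARα-alone peak was assigned to 11 of 15 genes (73.3%, 17.2% of all genes). A member was assigned to 5 of 15 (33.3%, 9.69% of all genes). Irs1, Igf1 and Irs2 had 1 each and Pik3r1 had 2. The Irs2 member was the only one of these with a DR1 match, and its BCL6 centre of Bcl6 fl/fl livers lay 39 bp away. Of 18 genes of cholesterol and bile acids, 7 had a member (38.9%, 9.69% of all genes), the same number as had a constant PPARα-alone peak, and 61.1% had a fasted-only one. Abca1, the cholesterol exporter, had 4, in introns 5 and 1 of Abca1 (41119 and 15587 bp), in an intron of Mexis (-109368 bp) and between genes (-122652 bp). Insig1, which retains the SREBP machinery, had 2, and the cholesterol synthesis gene Hmgcs1 (19222 bp), the sterol hydroxylase gene Cyp27a1 (7701 bp) and the sterol exporter gene Abcg8 (-22560 bp) had 1 each.

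Of 23 nuclear receptor genes, 5 (21.7%) had a member, against 9.69% of all genes. A constant PPARα-alone peak was assigned to 17 of the 23 (73.9%, 17.2% of all genes) and a fasted-only one to 20 (87.0%, 30.4% of all genes). Ppara itself had 1 at -15129 bp (chr15:85720327-85720543). Hnf4a had 1 in intron 6 (12171 bp), Esr1 1 in intron 6 (165999 bp), and Nr5a2 and Nr3c1 had 2 each. Of 15 genes of hepatocyte transcription factors, 10 (66.7%) had a member, the same number as for the constant class. Of 15 clock genes, 6 had 1 member each (40.0%): Arntl (16394 bp), Per2 (-4212 bp), Cry1 (-2474 bp), Cry2 (1529 bp), Tef (8915 bp) and Nfil3 (-88220 bp). A constant PPARα-alone peak was assigned to 53.3% of clock genes and a fasted-only one to 93.3%. In the corepressor list, 6 of 9 genes had a member (66.7%) with 7 members at Bcor, 2 at Bcl6, 2 at the receptor corepressor gene Nrip1, and 1 each at Tbl1x and Tbl1xr1. A constant PPARα-alone peak was assigned to 55.6% of corepressor genes and a fasted-only one to 88.9%. The Bcl6 members were at -3189 and -91782 bp, and the second was 41 bp from a BCL6 centre of Bcl6 fl/fl livers.

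Of the remaining lists, 4 of 15 immediate early genes had a member (26.7%, 9.69% of all genes). So did 3 of 25 genes of the mitochondrial respiratory chain (12.0%) and 1 of 25 cytosolic ribosome genes (4.00%). A constant PPARα-alone peak was assigned to 53.3%, 28.0% and 8.00% of these lists, against 17.2% of all genes. Marker genes of liver cell types were counted in the same way. The lists show only whether a peak is nearby, so these counts cannot check the labelled tissue. A member was nearest to 4 of 8 hepatocyte markers (Ttr, Apoa1, Apob and Tat), to 0 of 6 Kupffer cell and 0 of 6 stellate cell markers, to 3 of 6 endothelial markers (Pecam1, Stab2 and Kdr) and to 3 of 5 cholangiocyte markers (Sox9, Epcam and Spp1). A kept PPARα peak with BCL6 or PPARδ was assigned to 7 of 8 hepatocyte, 4 of 6 endothelial, 2 of 5 cholangiocyte, 2 of 6 stellate and 0 of 6 Kupffer cell markers. A constant PPARα-alone peak was assigned to 6 of 8 hepatocyte, 3 of 6 endothelial and 1 of 5 cholangiocyte markers. Such a peak was assigned to 0 of 6 stellate and 0 of 6 Kupffer cell markers. A fasted-only PPARα-alone peak was assigned to 7 of 8 hepatocyte, 1 of 6 endothelial, 1 of 5 cholangiocyte, 1 of 6 stellate and 1 of 6 Kupffer cell markers. Of all genes, 9.69% had a member, 17.2% a constant peak, 30.4% a fasted-only peak and 24.1% a kept peak with BCL6 or PPARδ. The part of cells other than hepatocytes in these peaks was not tested.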

How the data were processed

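ChIP-seq of male mouse liver was used as 7 peak lists, each pooled by the authors from 3 libraries (21 in all). Per the labels and the study's methods, the authors mapped reads with Bowtie (mm10), discarding those with several places in the genome and reads beyond 1 at the same start. HOMER then called peaks for the pooled replicates over input. The authors used DESeq2 on single libraries to retain peaks enriched by at least 2-fold with a false discovery rate below 0.05. The deposited values are peak starts and ends in bp, of fixed width in each list (216 bp for fed and 222 bp for fasted PPARα), with no normalization, count or score, so depth and replicate error are unknown. As reads with several places were discarded, near-identical gene copies can lack peaks.

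Peaks were compared by their centres at 200 bp, the distance of the study. Positions came from 45756 RefSeq transcripts on GRCm38 (mm10), with overlapping annotations resolved in the order promoter, exon, intron, intergenic. Sequence was read in 200 bp windows at the peak centre from the same RefSeq assembly, on both strands. Every sequence but the DR1 was matched exactly, and NRF1 and CTCF are given by name. Each peak was assigned to the closest of 21000 protein-coding genes by TSS, up to 1 Mb away, which need not be the gene regulated.

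Fisher's exact tests (two-sided, threshold 0.05) were adjusted by the Benjamini-Hochberg method over 8 tests of position, 2 of the Bcl6 fl/fl list, 18 of composition and 56 of sequences. Gene lists were counted without a test. Named genes were the 10 with the most members, list genes with a member and those of the printed sequences, which were ranked by DR1 mismatches and by distance to a listed TSS. Windows with a GAS match are printed outside that rule. Some named items are not reported here. The members and lists were chosen with earlier results of these data known. The functions were tested on simulated data. Alternatives covered the distance, interval overlap, promoter span, window, mismatches, repeat masking, G+C and TSS reach. Knockout and histone libraries were not used here. Versions were NumPy 2.4.6 and SciPy 1.17.1 under Python 3.11.15, with figures from Matplotlib 3.10.9.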

Additional observations from a re-analysis of the deposited data

How the results depend on the processing

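Of 107 alternatives over 15 results, 105 were counted as unchanged. For tested results this means the same direction and side of the threshold, which results that are plain counts do not have. The alternatives limited to autosomes and chromosome X left every count as it was. No member or constant peak lay on chromosome Y, so these outcomes were fixed in advance and are no check. The number of members ran from 2389 (400 bp between centres) to 2876 (100 bp). The odds ratio of the promoter share ran from 0.302 to 0.439 against constant and from 0.202 to 0.321 against fasted-only peaks, that of the DR1 from 0.581 to 0.716 and from 0.479 to 0.596, that of the Bcl6 fl/fl BCL6 share from 0.421 to 0.538 and from 1.84 to 2.21, and that of GAS from 1.63 to 2.19 and from 1.76 to 2.21. The alternatives for GAS and HNF6, and windows of 40% to 50% G+C, were added after the data were seen. The HNF6 difference from the constant class was lost in the G+C windows (odds ratio 1.01, unadjusted exact p = 1), where only sites of like composition are compared. The HNF6 odds ratio ran from 1.01 to 1.62 against constant and from 1.55 to 2.19 against fasted-only peaks. Among its alternatives, the repeat share of distal peaks against the constant class passed the threshold only in 100 bp windows (odds ratio 1.40, unadjusted exact p = 0.00497), and the cause was not tested. Of 139 members at named genes, 129 remained members at 400 bp. No paired analysis was possible because each list pools its replicates, and for the same reason no replicate could be left out. Peak heights are not in the lists, so how far each fed-only peak lay from the calling threshold in fasted liver could not be measured.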

Other observations

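The GAS matches were also sorted by their middle letters, a search chosen after the GAS shares were seen and given without a test. The form TTCCNGGAA, preferred by STAT5, was found in 49 of 2313 distal fed-only PPARα-alone peaks (2.12%, Wilson interval 1.61% to 2.79%), 62 of 4190 constant peaks (1.48%) and 86 of 7133 fasted-only peaks (1.21%). The form TTCCTAGAA, which is close to the recognition sequence of BCL6, was found in 15 (0.649%, 0.393% to 1.07%), 4 (0.0955%, 0.0371% to 0.245%) and 11 (0.154%). Peaks with BCL6 or PPARδ held TTCCTAGAA in 29 of 1765 cases (1.64%) where called in the fed state only and in 72 of 11221 (0.642%) where called in both states. Most GAS matches in each of these classes had neither form.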
